A study of Mus musculus with 42 samples.

Results

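The genes described here are 6 members of the renin-angiotensin system in mouse kidney, Ren1, Agt, Ace, Agtr1a, Enpep and Mme. They were chosen by symbol, and each matched 1 of the 54532 genes in the count and FPKM tables (FPKM, fragments per kilobase of gene length and sequencing depth). RNA was sequenced from whole kidneys in 42 libraries, 3 for each of 14 groups, to ask what deletion of Tsc2, of the transcription factor gene Tfeb, or of both (DKO) changes, and what rapamycin, an inhibitor of mTORC1, changes in the same kidneys. Tsc2 encodes a subunit of the TSC complex, which restrains mTORC1, and Tsc2 KO kidneys of both Cre lines become cystic.

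In the CaggCreERT2 cohort, Ctrl (CaggCreERT2+; Tsc2+/+), Tsc2 KO (Tsc2 fl/fl), Tfeb KO (Tfeb fl/fl) and DKO (Tsc2 fl/fl; Tfeb fl/fl) mice received tamoxifen through their lactating mothers on 3 days from postnatal day 1, controls included, and kidneys were taken at day 30. CaggCreERT2 recombines throughout the body, so renin-producing cells and organs other than the kidney can carry the deletion too. In the KspCre cohort, the same 4 genotypes were analysed at day 50 without treatment, and the controls carried no Cre. KspCre is driven by the promoter of cadherin 16 in tubular epithelium and does not target renin cells, podocytes or vessels. In the drug cohort, KspCre Tsc2 KO and DKO mice and controls that carried no Cre were given vehicle or rapamycin by intraperitoneal injection. Rapamycin was given at 1 mg/kg, 3 times per week for 11 injections, and the mice were analysed at day 50. All mice were on a C57BL/6 background, and the labels do not state that replicates are separate animals, so p-values measure only the spread between libraries.

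The renin-angiotensin system sets blood pressure and salt balance. Renin, secreted by juxtaglomerular cells of the afferent arteriole, cleaves angiotensinogen to angiotensin I, and angiotensin-converting enzyme makes angiotensin II, which acts mainly through the type 1 receptor. The kidney also makes angiotensinogen in the proximal tubule, and the tubular brush border carries peptidases that shorten angiotensin peptides.

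Libraries held between 14926050 and 22807605 counted reads, and every member had at least 259 reads in each library. FPKM of Tsc2 was between 6.86 and 10.6 in libraries without Tsc2 deletion and between 3.54 and 6.50 in the others, without overlap. Tfeb was lower in every library with Tfeb deletion than in the others of the CaggCreERT2 cohort (1.99 to 3.73 against 4.57 to 8.33) and of the drug cohort (2.57 to 3.29 against 3.89 to 7.0). In the KspCre cohort it did not separate the genotypes, at 5.85 to 6.24 in Ctrl, 3.66 to 6.12 in Tsc2 KO, 4.32 to 5.25 in Tfeb KO and 2.65 to 4.09 in DKO libraries. Proximal tubule markers were abundant in every library, with a summed FPKM of 9 genes of at least 442. Genes of the adrenal cortex, which lies next to the kidney, summed to at most 1.93 FPKM over 6 genes in 36 libraries. The sums were 1021 and 31.7 in vehicle-treated Tsc2 KO libraries 1 and 2, 197 and 2674 in vehicle-treated DKO libraries 1 and 2, and 156 and 20.4 in CaggCreERT2 Tfeb KO libraries 1 and 2. Without these 6 libraries each of the 3 groups is left with 1, and fits without them assume that it varies like the libraries of the other groups. Sums of 4 adipose genes also varied within groups. They were 0.156 to 197 FPKM in vehicle-treated Ctrl and, in untreated KspCre kidneys, 0.677 to 167 in Tsc2 KO, 11.4 to 263 in DKO and 11.6 to 35.2 in Tfeb KO libraries. The part of adipose RNA in the values of the members was not tested. By their level of Xist, all libraries of the KspCre and drug cohorts came from females. The CaggCreERT2 cohort mixed the sexes unevenly, with 3 male Ctrl, 1 male and 2 female Tsc2 KO, 3 female Tfeb KO, and 2 male and 1 female DKO libraries. For 4 CaggCreERT2 libraries the names in the count and FPKM tables differ, and for 2 of these the genotype differs. Those of the FPKM table were taken throughout. By these names DKO library 1 had 5.26 FPKM of Tsc2 and Tfeb KO library 3 had 10.2, and the count table's names exchange the genotypes of this pair, against their Tsc2 levels.

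Ren1 (ENSMUSG00000070645) encodes renin, the rate-limiting enzyme of the system, and lies on the plus strand at chr1:133350510-133360325 (GRCm38). C57BL/6 mice lack the duplicated gene Ren2. Agt (ENSMUSG00000031980), on the minus strand at chr8:124556534-124569706, encodes its substrate angiotensinogen. Their proximal promoters are shown because these 2 genes moved in opposite directions, with 250 bases before and 50 after the RefSeq start site (GRCm38.p6), 5′ to 3′ on the gene's strand. The windows are chr1:133350424-133350723 (plus) and chr8:124569657-124569956 (minus), and capitals mark a TATA box (TATAAA).
Ren1: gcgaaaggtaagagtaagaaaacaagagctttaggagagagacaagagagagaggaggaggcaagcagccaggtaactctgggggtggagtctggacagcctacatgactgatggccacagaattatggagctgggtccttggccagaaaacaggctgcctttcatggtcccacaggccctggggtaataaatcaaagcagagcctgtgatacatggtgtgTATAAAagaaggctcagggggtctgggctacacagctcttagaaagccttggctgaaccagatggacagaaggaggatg
Agt: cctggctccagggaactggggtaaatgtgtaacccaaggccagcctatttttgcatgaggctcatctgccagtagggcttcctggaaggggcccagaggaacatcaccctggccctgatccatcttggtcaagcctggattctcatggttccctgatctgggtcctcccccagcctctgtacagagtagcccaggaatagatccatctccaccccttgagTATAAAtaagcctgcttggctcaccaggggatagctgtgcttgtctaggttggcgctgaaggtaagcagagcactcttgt
The TATA box starts 29 bases before the start site of Ren1 and 30 bases before that of Agt. On either strand, TATAAA occurs in 13.6% of 32851 promoter windows of this length. The palindrome CACGTG, the E-box core of the CLEAR element that TFEB binds, occurs in 7.15% of these windows and in 0 of the 8 windows of the 5 members that have one. TGACGT, the cyclic AMP response element core, occurs in 7.51% and in 0 of the same 8. A missing motif says only that these letters are not in this window.

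Ren1 fell with Tsc2 deletion in all 3 cohorts. In CaggCreERT2 kidneys its FPKM was 249, 91.8 and 206 in Ctrl and 11.6, 37.9 and 54.5 in Tsc2 KO libraries. Every Tsc2 KO library was below every Ctrl library, with a coefficient of variation of 62.3% in Tsc2 KO and 44.5% in Ctrl. The Tsc2 KO mean was 5.05-fold lower (log2 fold change -2.34 ± 0.48 SE, adjusted p = 0.00328, quasi-likelihood test of edgeR, Benjamini-Hochberg adjusted over all tested genes, used throughout with n = 3 libraries a group). A gene is called here when its adjusted p is 0.05 or lower and its mean FPKM reaches 5 in at least 1 of the groups compared. In this comparison 5 of the 6 members were called, 4 lower and 1 higher, against a background of 38.4% of genes called in either direction, 15.5% lower and 23.0% higher. With the 6 male libraries alone the difference in Ren1 was -2.24 (adjusted p = 0.0100), from 1 Tsc2 KO library whose spread is assumed to be that of the other groups. With the count table's names, which leave these groups as they are and change the other groups of the fit, its adjusted p was 0.0533.

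In the untreated KspCre cohort Ren1 was at 91.7, 64.4 and 37.8 FPKM in Ctrl and 13.2, 9.25 and 28.6 in Tsc2 KO libraries. The groups did not overlap, although the lowest Ctrl library was close to the highest Tsc2 KO library. The log2 fold change was -1.92 ± 0.58 (adjusted p = 0.0477), and 3 of 6 members were called (2 lower, 1 higher) against a background of 18.2% (8.74% lower, 9.42% higher). Leaving out Ctrl library 1 or 2, Tsc2 KO library 1 or 2, Tfeb KO library 1 or DKO library 1 raised the adjusted p of Ren1 to between 0.0517 and 0.158, while the difference stayed between -2.52 and -1.59 with any library left out. In the drug cohort Ren1 was at 63.2, 64.5 and 134 FPKM in vehicle-treated Ctrl and at 11.3, 8.67 and 7.94 in vehicle-treated Tsc2 KO libraries. These Tsc2 KO libraries were tightly grouped and far below every control. The mean was 9.38-fold lower (log2 fold change -3.23 ± 0.42, adjusted p = 2.13e-05), with 5 of 6 members called (4 lower, 1 higher) against a background of 48.5% (24.6% lower, 23.8% higher). Without the libraries that held adrenal transcripts the difference was -3.47 (adjusted p = 0.00578), which rests on Tsc2 KO library 3 alone, the lowest of its group, and on the spread of the other groups. In whole-kidney RNA, fewer cells of a type and less RNA per cell cannot be told apart.

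**Figure D1:**
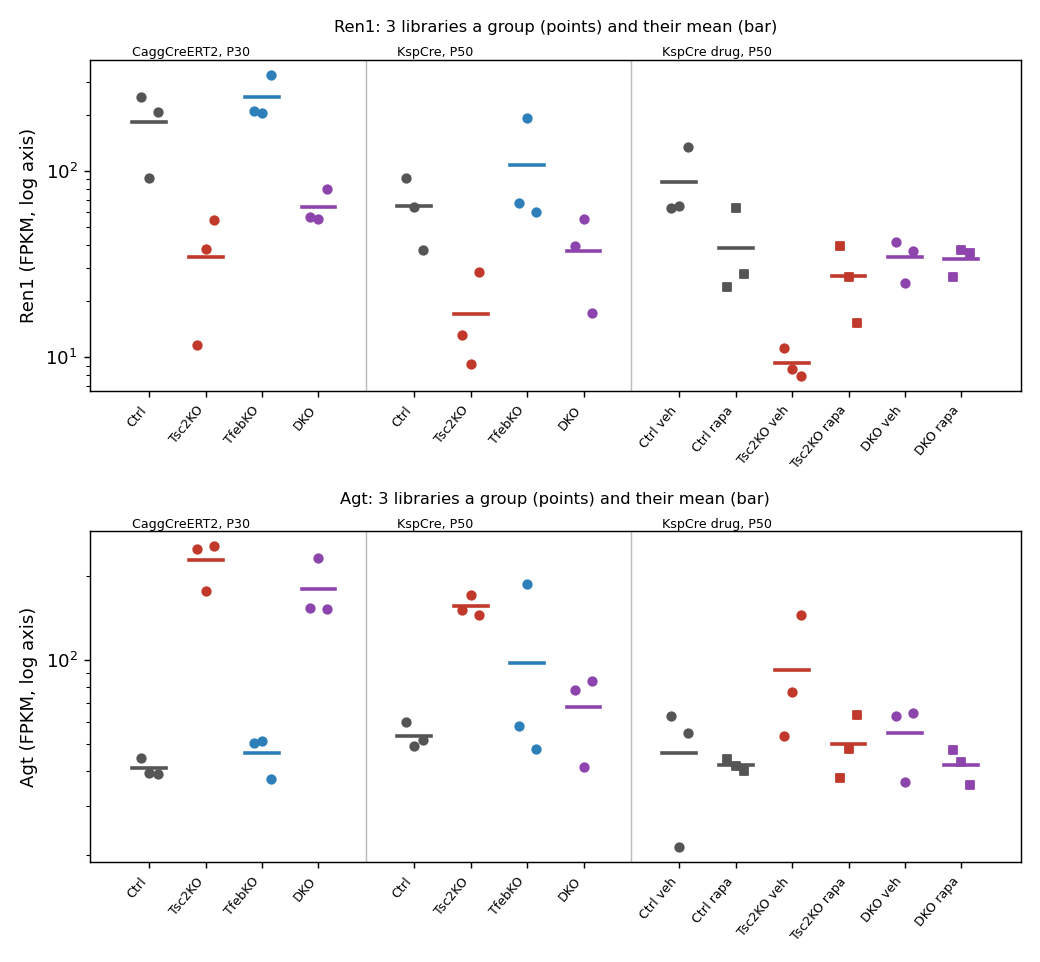
FPKM of Ren1 (top) and Agt (bottom) on log axes in each of the 42 libraries. Points are libraries, 3 a group, bars are group means, squares are rapamycin-treated groups, and vertical lines separate the CaggCreERT2, KspCre and drug cohorts. The vehicle-treated Tsc2 KO libraries lie between 7.94 and 11.3 for Ren1, below every other group of that cohort, while CaggCreERT2 Tsc2 KO libraries lie between 176 and 257 for Agt.

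Agt moved the opposite way. In CaggCreERT2 kidneys its FPKM was 44.4, 39.2 and 39.1 in Ctrl and 250, 176 and 257 in Tsc2 KO libraries. The lowest Tsc2 KO library was far above the highest Ctrl library, and the log2 fold change was 2.54 ± 0.20 (5.82-fold, adjusted p = 6.3e-06). In untreated KspCre kidneys Agt was at 60.0, 49.1 and 51.7 in Ctrl and at 151, 171 and 146 in Tsc2 KO libraries, again without overlap (1.54 ± 0.44, adjusted p = 0.0377). The size held with any library left out (1.46 to 1.62), but the call was lost without any of the 3 Ctrl or any of the 3 Tsc2 KO libraries, with an adjusted p between 0.0714 and 0.117. In the drug cohort Agt was at 63.1, 21.3 and 54.7 in vehicle-treated Ctrl and at 53.5, 76.7 and 145 in vehicle-treated Tsc2 KO libraries, and these groups overlapped. The log2 fold change was 0.99 ± 0.37 (adjusted p = 0.0459). This call was lost in 13 of 18 fits that left out 1 library. The difference fell to 0.51 without Tsc2 KO library 3 (adjusted p = 0.290) and to 0.64 without Ctrl library 2 (adjusted p = 0.170), and the other 11 losses had an adjusted p between 0.0509 and 0.0627. It was also lost in a fit of only these groups (0.95, adjusted p = 0.142). Without the libraries that held adrenal transcripts it was 1.64, but only Tsc2 KO library 3 is then left, the one with the highest Agt of its group.

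The ratio of Agt to Ren1 FPKM within a library summarizes both shifts, given here as a description without a test. It was 0.178, 0.190 and 0.427 in CaggCreERT2 Ctrl libraries and 4.65, 4.71 and 21.5 in Tsc2 KO libraries. In KspCre kidneys the range was 0.654 to 1.37 in Ctrl and 5.08 to 18.5 in Tsc2 KO libraries, and in vehicle-treated kidneys 0.331 to 0.999 and 4.75 to 18.3. In every cohort the lowest ratio of the Tsc2 KO libraries was above the highest of the Ctrl libraries. With both genes deleted it was 1.89 to 4.20 in CaggCreERT2 kidneys, below all Tsc2 KO and above all Ctrl libraries, 0.755 to 4.89 in KspCre kidneys and 1.46 to 1.75 in vehicle-treated kidneys.

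Ace (ENSMUSG00000020681), on the plus strand at chr11:105967945-105989964, encodes angiotensin-converting enzyme, which in mouse kidney is found on the endothelium and the proximal tubule brush border. Its exons overlap those of the antisense gene Gm11651, and the libraries do not keep strand, so reads of the pair cannot be told apart. Enpep (ENSMUSG00000028024), on the minus strand at chr3:129269175-129332720, encodes aminopeptidase A, which removes the first residue of angiotensin II, and is expressed in podocytes and the proximal tubule. The promoters of these 2 members are shown because they moved with Ren1, as chr11:105967698-105967997 (plus, the first of 2 RefSeq windows of Ace) and chr3:129332700-129332999 (minus), with the same motif in capitals, here TTTATA, as it stands on the other strand.
Ace: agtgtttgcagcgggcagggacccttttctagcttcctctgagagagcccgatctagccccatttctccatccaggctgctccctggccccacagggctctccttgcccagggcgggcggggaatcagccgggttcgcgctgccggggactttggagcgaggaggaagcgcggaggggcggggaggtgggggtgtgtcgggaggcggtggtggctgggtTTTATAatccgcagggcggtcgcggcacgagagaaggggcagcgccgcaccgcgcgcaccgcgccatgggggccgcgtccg
Enpep: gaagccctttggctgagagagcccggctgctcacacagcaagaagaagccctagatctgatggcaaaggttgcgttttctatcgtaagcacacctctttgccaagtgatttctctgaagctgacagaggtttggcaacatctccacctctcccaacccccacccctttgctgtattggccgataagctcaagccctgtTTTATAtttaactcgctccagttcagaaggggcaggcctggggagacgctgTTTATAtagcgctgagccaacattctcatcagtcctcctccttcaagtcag
The motif starts 31 bases before the start site of Ace, and 52 and 1 bases before that of Enpep. Of the 8 windows of the 5 members, 4 hold TATAAA on either strand.

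Ace was the member whose decrease with Tsc2 deletion held in all 3 cohorts under every alternative tried. Its FPKM was 36.1, 34.3 and 23.9 in CaggCreERT2 Ctrl and 8.85, 8.08 and 17.7 in Tsc2 KO libraries (-1.38 ± 0.27, adjusted p = 0.00246). In KspCre kidneys it was 67.2, 32.2 and 30.4 in Ctrl and 9.08, 9.94 and 14.1 in Tsc2 KO libraries (-1.97 ± 0.33, adjusted p = 0.00289). Neither pair of groups overlapped. With vehicle it was 47.5, 30.6 and 41.9 in Ctrl and 5.23, 7.41 and 7.74 in Tsc2 KO libraries of the drug cohort, a 5.88-fold difference (-2.56 ± 0.20, adjusted p = 1.67e-07). This was the lowest group of the 14, and all of its libraries were below every control.

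Enpep fell from 54.8, 57.0 and 50.1 FPKM in CaggCreERT2 Ctrl to 22.3, 24.6 and 25.9 in Tsc2 KO libraries (-1.09 ± 0.09, adjusted p = 1.12e-05). It fell from 40.4, 45.4 and 41.3 in vehicle-treated Ctrl to 12.7, 13.8 and 17.1 in vehicle-treated Tsc2 KO libraries (-1.54 ± 0.19, adjusted p = 9.15e-06). Both pairs of groups were far apart with little spread. In untreated KspCre kidneys the values were 35.6, 32.3 and 33.6 in Ctrl and 19.0, 18.2 and 27.0 in Tsc2 KO libraries, which did not overlap but missed the threshold (-0.66 ± 0.21, adjusted p = 0.0611). They passed it without Tsc2 KO library 3 (adjusted p = 0.0354) or DKO library 1 (adjusted p = 0.0173), by DESeq2 (adjusted p = 0.0269), in a fit of only these groups (adjusted p = 0.0249) and without a filter on low counts (adjusted p = 0.0467).

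Agtr1a (ENSMUSG00000049115, chr13:30336441-30382867, plus strand) encodes the main type 1 angiotensin II receptor of the kidney, found on vessels, mesangial cells and tubules. Its FPKM was 16.0, 16.6 and 16.2 in CaggCreERT2 Ctrl and 10.8, 14.8 and 13.8 in Tsc2 KO libraries (-0.25 ± 0.13, adjusted p = 0.186, 95% interval -0.51 to 0.015). In KspCre kidneys it was 13.1, 15.7 and 17.3 against 11.2, 7.80 and 11.4 (-0.60 ± 0.20, adjusted p = 0.0677). No Tsc2 KO library reached a control in either cohort. Neither difference passed the test of edgeR with all groups, but the KspCre difference was called by DESeq2 (adjusted p = 0.0400) and in a fit of only these groups (adjusted p = 0.0490). With vehicle the values were 11.4, 11.6 and 19.7 in Ctrl and 11.1, 5.60 and 8.02 in Tsc2 KO libraries (-0.79 ± 0.26, adjusted p = 0.0229). This call was lost without Ctrl library 3 (-0.49, adjusted p = 0.149), Tsc2 KO library 2 (-0.56, adjusted p = 0.119) or Tsc2 KO library 3 (-0.76, adjusted p = 0.0641), and in a fit of only these groups (-0.82, adjusted p = 0.0688). With Tsc2 KO library 3 alone, which is left without the libraries that held adrenal transcripts, it was -0.84 (adjusted p = 0.0723). The near-identical receptor gene Agtr1b was at 2.83 FPKM in vehicle-treated Tsc2 KO library 1 and at 1.51 in vehicle-treated DKO library 2, the libraries with the highest adrenal sums, and below 0.5 in the other 40. The part of adrenal RNA in the Agtr1a values was not tested beyond leaving these libraries out.

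Mme (ENSMUSG00000027820, chr3:63241537-63386030, plus strand) encodes neprilysin, a brush border and podocyte peptidase that makes angiotensin 1-7 from angiotensin I. Its FPKM fell from 22.3, 23.0 and 18.8 in CaggCreERT2 Ctrl to 13.9, 10.5 and 14.0 in Tsc2 KO libraries (-0.68 ± 0.13, adjusted p = 0.00194). In KspCre kidneys it was 41.2, 27.9 and 19.2 in Ctrl and 22.6, 29.7 and 21.1 in Tsc2 KO libraries (-0.27, adjusted p = 0.548), and in vehicle-treated kidneys 28.5, 32.9 and 35.9 against 34.8, 40.6 and 26.9 (0.07, adjusted p = 0.807). In both of these cohorts the groups overlapped. The difference between cohorts was not tested. With the count table's names the adjusted p of Mme in CaggCreERT2 kidneys was 0.0983.

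**Figure D2:**
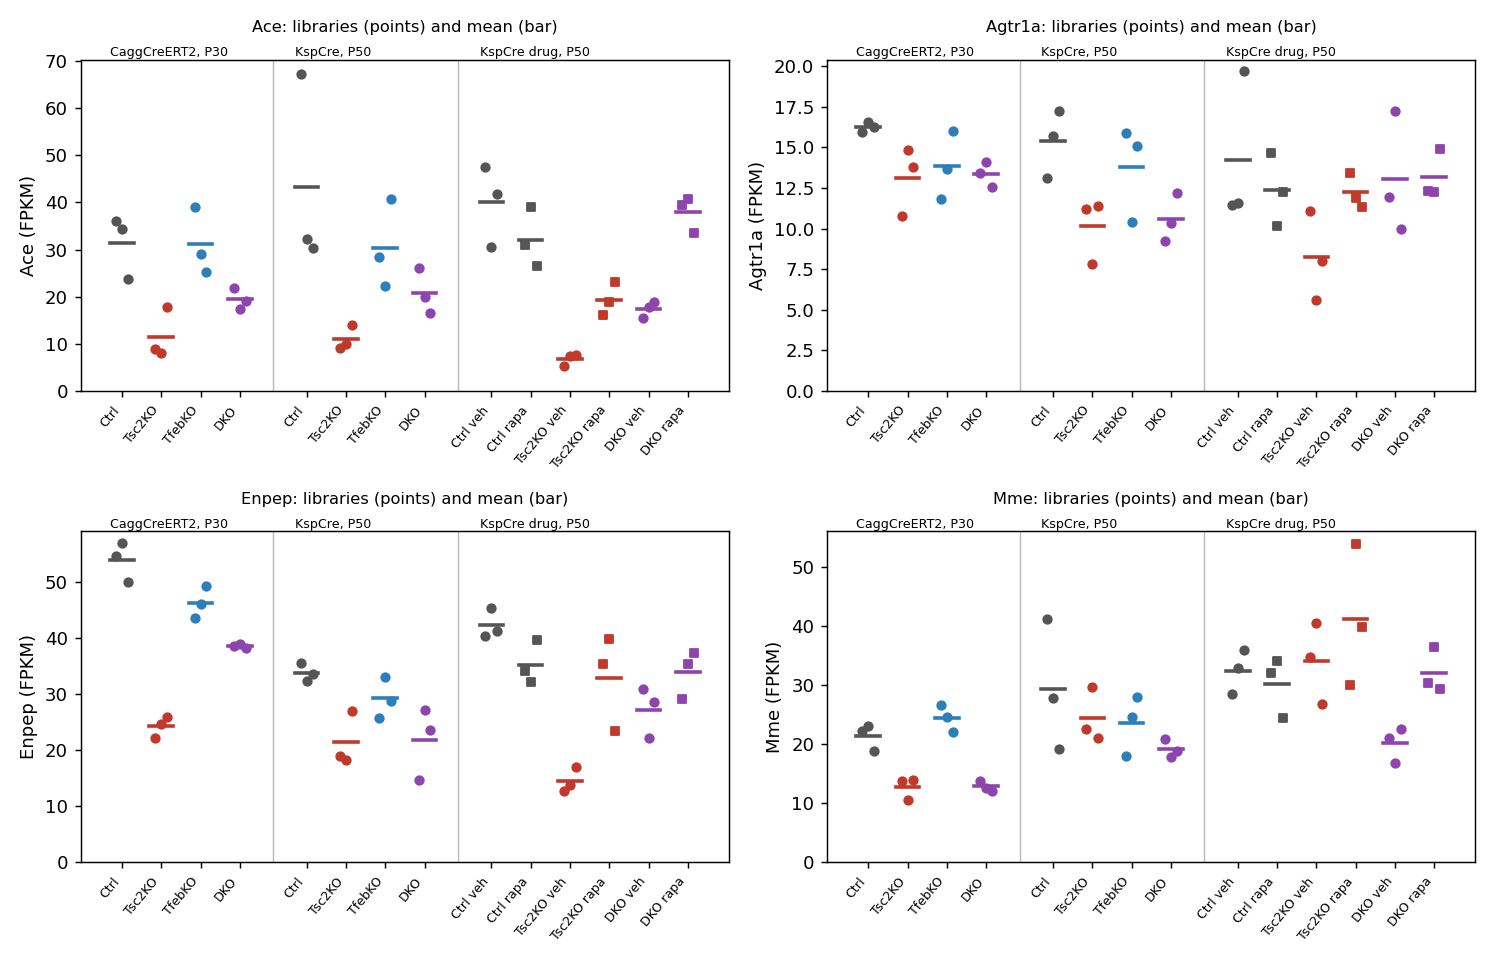
FPKM of Ace, Agtr1a, Enpep and Mme in each of the 42 libraries on linear axes. Points are libraries, 3 a group, bars are group means, squares are rapamycin-treated groups, and vertical lines separate the cohorts. Within their cohorts Ace and Enpep are lowest in the CaggCreERT2 Tsc2 KO and the vehicle-treated Tsc2 KO groups, with means of 11.6 and 6.79 for Ace and 24.3 and 14.5 for Enpep, whereas the 14 group means of Agtr1a lie between 8.24 and 16.3.

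No member was called with deletion of Tfeb alone. In CaggCreERT2 kidneys Ren1 was at 209, 206 and 328 FPKM in Tfeb KO libraries, overlapping Ctrl (0.48, adjusted p = 0.837), and Agt was at 50.3, 51.5 and 37.6 (0.21). Log2 fold changes of the others were between -0.20 and 0.22. By edgeR 0.0256% of genes were called, 607 of the genes that reach 5 FPKM had an unadjusted p under 0.05, and DESeq2 called 54 genes, none of them a member. In KspCre kidneys 0 members and 0 genes in all (0%) were called by edgeR, 841 genes had an unadjusted p under 0.05, and DESeq2 called 8 genes, none of them a member. Here Tfeb KO library 2 stood apart, at 193 FPKM for Ren1 against 67.1 and 60.3 in the other libraries and at 188 for Agt against 58.0 and 48.0. Without this library the log2 fold changes were -0.0066 for Ren1 and -0.0043 for Agt, compared with 0.73 and 0.87 with it.

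With both genes deleted, the members lay between the single Tsc2 KO and the controls in part. In the vehicle-treated drug cohort DKO libraries had 41.6, 25.0 and 37.1 FPKM of Ren1, above all Tsc2 KO and below all Ctrl libraries (1.90 ± 0.40 against Tsc2 KO, adjusted p = 0.00316). Ace was at 15.5, 17.9 and 19.0, also between both groups without overlap (1.36 ± 0.20, adjusted p = 0.000166), as was Enpep at 30.9, 22.1 and 28.7 (0.91 ± 0.18, adjusted p = 0.00206). Mme was lower in DKO, at 21.1, 16.8 and 22.6 (-0.76 ± 0.21, adjusted p = 0.0146), and its call was lost without Tsc2 KO library 2 (-0.62, adjusted p = 0.0692) or DKO library 2 (-0.65, adjusted p = 0.0528). Agt, at 63.1, 36.7 and 64.8, overlapped both groups (-0.74, adjusted p = 0.166), and Agtr1a, at 11.9, 17.2 and 9.99, missed the threshold (0.66, adjusted p = 0.0767). In total, 4 of 6 members were called (3 higher, 1 lower) against a background of 29.5% (16.9% higher, 12.6% lower). Of the 6 libraries in this comparison, 4 held adrenal transcripts. With the single library left in each group no member was called, with Ren1 at 2.23 (adjusted p = 0.169), Ace at 1.30 (adjusted p = 0.0685), Enpep at 0.75 (adjusted p = 0.243) and Mme at -0.25 (adjusted p = 0.846), in a fit that assumes these lone libraries to vary like the other groups.

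In CaggCreERT2 kidneys, where none of the Tsc2 KO, DKO or Ctrl libraries held adrenal transcripts, Enpep was the 1 member called between DKO and Tsc2 KO (background 14.5%, 6.91% higher). Its FPKM was 38.6, 39.0 and 38.3 in DKO, above every Tsc2 KO and below every Ctrl library (0.65 ± 0.09, adjusted p = 0.00195). Ren1, at 56.9, 55.2 and 80.3, did not overlap Tsc2 KO but missed the threshold (0.87 ± 0.46, adjusted p = 0.254). Ace, at 21.9, 17.3 and 19.2, overlapped the highest Tsc2 KO library and also missed it (0.73 ± 0.27, adjusted p = 0.103), but passed it without Tsc2 KO library 3 (1.17, adjusted p = 0.00397). Without a filter on low counts both were called (adjusted p = 0.0113 for Ren1 and 0.00269 for Ace). Agt stayed high in DKO, at 154, 232 and 152 (-0.37, adjusted p = 0.238), and Mme low, at 13.8, 12.6 and 12.1 (-0.016). In the interaction, which asks whether loss of Tfeb acts differently with and without Tsc2 deletion, Enpep alone was called (0.84 ± 0.13, adjusted p = 0.00912, background 2.13%, 1.63% higher). That call was lost without the 2 Tfeb KO libraries that held adrenal transcripts, with 1 Tfeb KO library left (0.75, adjusted p = 0.0891), and with sex as a covariate (0.80, adjusted p = 0.162), where all Ctrl libraries are male and all Tfeb KO libraries female. In untreated KspCre kidneys no member was called between DKO and Tsc2 KO by edgeR or DESeq2 (background 0.286%, 1063 genes with an unadjusted p under 0.05). Ren1 was at 39.5, 54.9 and 17.2 in DKO (1.13, adjusted p = 0.449), Agt at 77.9, 41.4 and 84.2 (-1.19, adjusted p = 0.276) and Ace at 26.0, 19.9 and 16.5 (0.92, adjusted p = 0.262). DKO library 1 stood apart here, with summed macrophage markers of 297 FPKM against 41.1 and 60.6 in the other DKO libraries and the lowest proximal tubule sum of the group (709 against 1589 and 1279). Without it no member was called either, with Ren1 at 1.08, Agt at -1.31 and Ace at 0.72. Agt passed the threshold without Tfeb KO library 2 (-1.20, adjusted p = 0.0484). In the KspCre interaction edgeR called no gene (background 0%, 929 genes with an unadjusted p under 0.05), and DESeq2 called 75 genes, among them Agt at -2.07 (adjusted p = 0.0476). By edgeR this value was also -2.07 (adjusted p = 0.392), and without Tfeb KO library 2 it was -1.20 (adjusted p = 0.522).

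Against the controls, DKO kidneys of the CaggCreERT2 cohort had 3 members called, 1 higher and 2 lower (background 14.9%, 10.2% higher and 4.73% lower). Agt was higher (2.17 ± 0.20, adjusted p = 3.67e-05), and Enpep (-0.44, adjusted p = 0.00939) and Mme (-0.69, adjusted p = 0.00463) were lower. Ren1 missed the threshold (-1.47 ± 0.46, adjusted p = 0.0655) and passed it without Ctrl library 2 (-1.79, adjusted p = 0.0418), Tsc2 KO library 1 (adjusted p = 0.0149) or Tsc2 KO library 3 (adjusted p = 0.0399), and Ace (-0.65, adjusted p = 0.152) did so without Tsc2 KO library 3 (adjusted p = 0.0317). Both were called in a fit of only these groups (adjusted p = 0.0114 and 0.0152). With the count table's names, which put the library with 10.2 FPKM of Tsc2 into DKO, none of the 6 was called. In vehicle-treated kidneys Ace (-1.20 ± 0.19, adjusted p = 0.00234) and Enpep (-0.64 ± 0.18, adjusted p = 0.0493) were lower in DKO than in Ctrl (2 of 6, background 8.42%, 3.05% lower). Ren1, at -1.33 (adjusted p = 0.0550), and Mme, at -0.69 (adjusted p = 0.0589), missed the threshold by edgeR and were called by DESeq2 (adjusted p = 0.00756 and 0.0157). With 1 DKO library left after those that held adrenal transcripts were taken out, neither Ace nor Enpep was called, at -1.08 for Ace (adjusted p = 0.135) and -0.57 for Enpep (adjusted p = 0.436), and the call of Enpep was lost in 14 of 18 fits that left out 1 library, with a difference between -0.75 and -0.50. Untreated KspCre DKO kidneys had no member called against Ctrl by edgeR (background 3.89%, 1788 genes with an unadjusted p under 0.05), with log2 fold changes between -1.05 for Ace (adjusted p = 0.106, called by DESeq2 at an adjusted p of 0.0187) and 0.34 for Agt.

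**Figure D3:**
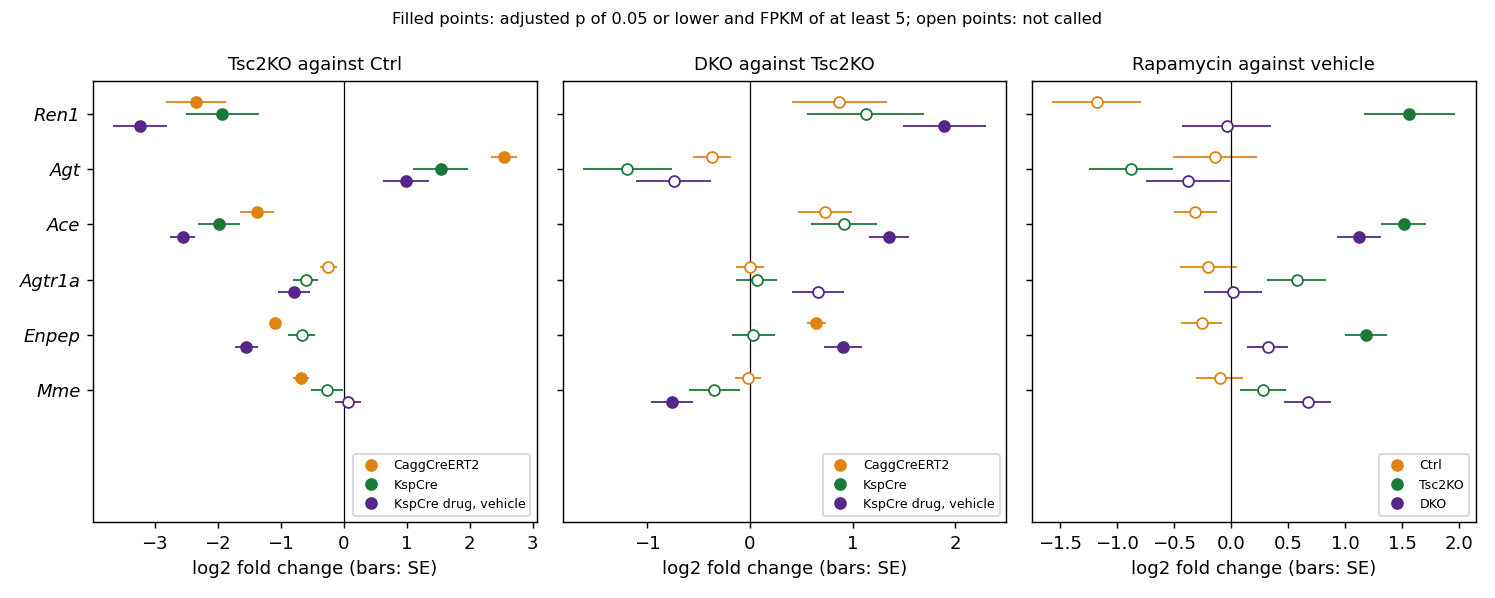
Log2 fold changes of the 6 members, with bars of 1 SE, for Tsc2 KO against Ctrl (left) and DKO against Tsc2 KO (middle) in the 3 cohorts, and for rapamycin against vehicle in the 3 genotypes of the drug cohort (right). Filled points were called and open points were not. Ren1, Ace and Enpep lie left of 0 and Agt right of 0 in the left panel, and in the right panel Ren1 is at -1.18 in Ctrl and at 1.56 in Tsc2 KO kidneys.

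The effect of rapamycin on Ren1 differed between Tsc2 KO and control kidneys. In Tsc2 KO kidneys its FPKM was 39.7, 27.1 and 15.3 with rapamycin, above all vehicle-treated libraries of that genotype (1.56 ± 0.40, adjusted p = 0.00803). In Ctrl kidneys it was 23.8, 63.4 and 27.9 with rapamycin, and the highest of these overlapped the vehicle-treated libraries (-1.18 ± 0.39, adjusted p = 0.379). The difference between these effects was 2.74 ± 0.56 (adjusted p = 0.0029, interaction term). In DKO kidneys Ren1 was at 26.9, 37.5 and 36.5 with rapamycin, within the range of the vehicle-treated libraries (-0.04), and the difference from the effect in Tsc2 KO kidneys was 1.60 (adjusted p = 0.0951).

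Ace rose with rapamycin in Tsc2 KO kidneys to 16.1, 18.9 and 23.1 FPKM (1.51 ± 0.20, adjusted p = 3.73e-05) and in DKO kidneys to 39.5, 40.8 and 33.4 (1.12 ± 0.19, adjusted p = 0.00382). In both genotypes every treated library was above every vehicle-treated one. In Ctrl kidneys it was at 30.9, 39.0 and 26.5 (-0.31, adjusted p = 0.527), and the effect in Tsc2 KO exceeded that in Ctrl kidneys by 1.83 ± 0.27 (adjusted p = 0.000321). Enpep rose in Tsc2 KO kidneys to 35.4, 39.9 and 23.5 (1.19 ± 0.18, adjusted p = 0.000171) and was at 34.2, 32.1 and 39.6 in treated Ctrl (-0.26, adjusted p = 0.569) and at 29.1, 35.4 and 37.4 in treated DKO kidneys (0.32, adjusted p = 0.332). Its effect in Tsc2 KO exceeded that in Ctrl kidneys by 1.45 ± 0.26 (adjusted p = 0.00111). Its excess over that in DKO kidneys was 0.87 (adjusted p = 0.0534, and called without vehicle-treated Tsc2 KO library 3, vehicle-treated DKO library 2 or treated Tsc2 KO library 3, with an adjusted p between 0.0118 and 0.0355).

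Agt was at 37.9, 48.2 and 63.5 FPKM in treated Tsc2 KO libraries, which overlapped vehicle (-0.88 ± 0.37, adjusted p = 0.0878). This difference was called without vehicle-treated Ctrl library 2 (-0.88, adjusted p = 0.0405) or Tsc2 KO library 1 (-1.15, adjusted p = 0.0343), and by DESeq2 (adjusted p = 0.0455). Agtr1a was at 13.4, 11.9 and 11.3 (0.57, adjusted p = 0.106) and was called without vehicle-treated Tsc2 KO library 1 (0.85, adjusted p = 0.0305). Mme was at 30.0, 54.0 and 39.9 and overlapped vehicle (0.28, adjusted p = 0.335). In DKO kidneys Mme was at 30.3, 36.5 and 29.3 with rapamycin, above all vehicle-treated libraries, and missed the threshold by edgeR (0.67, adjusted p = 0.0677), while DESeq2 called it (adjusted p = 0.0218), as did a fit of only these groups (adjusted p = 0.0466). In all, rapamycin raised 3 of 6 members in Tsc2 KO kidneys (background 38.5%, 21.2% higher), 1 of 6 in DKO kidneys (background 7.43%, 2.73% higher) and 0 of 6 in Ctrl kidneys by edgeR or DESeq2 (background 0.0664%, 1094 genes with an unadjusted p under 0.05). The interaction between Tsc2 KO and Ctrl was called for 3 of 6, all positive (background 29.8%, 17.2% positive), and that between Tsc2 KO and DKO for 0 of 6 by edgeR and 2 by DESeq2, Ren1 and Enpep (background 11.0%, 2353 genes with an unadjusted p under 0.05). Without the libraries that held adrenal transcripts, the vehicle-treated Tsc2 KO group is library 3 alone, which has the highest Agt and the lowest Ren1 of the group, and the values below rest on it and on the spread of the other groups. In Tsc2 KO kidneys the calls were then Ace (1.33, adjusted p = 0.0111), Enpep (0.95, adjusted p = 0.0298) and Agt (-1.53, adjusted p = 0.0264), while Ren1 was at 1.79 (adjusted p = 0.111). The difference between Tsc2 KO and Ctrl effects was 2.98 for Ren1 (adjusted p = 0.0374), 1.65 for Ace (adjusted p = 0.0121) and 1.22 for Enpep (adjusted p = 0.0270). Ace in DKO kidneys, also with 1 vehicle-treated library, was at 1.00 (adjusted p = 0.170).

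With rapamycin in both groups, no member was called between treated Tsc2 KO and treated Ctrl kidneys by edgeR (background 0.821%, 1108 genes with an unadjusted p under 0.05). Ren1 differed by -0.49 (95% interval -1.25 to 0.28), which does not show that the groups are alike, and Ace by -0.73 (adjusted p = 0.118), which DESeq2 called (adjusted p = 0.0195). Between treated DKO and treated Tsc2 KO kidneys Ace was higher in DKO without overlap (0.97 ± 0.19, adjusted p = 0.0464, background 0.397%, 0.119% higher). The call of Ace was lost in 11 of 18 fits that left out 1 library, 5 of them from these groups, with a difference between 0.85 and 1.11, and in a fit of only these groups (0.97, adjusted p = 0.0646).

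Of the 24 genes of the wider pathway, 17 reached 5 FPKM in CaggCreERT2 and 16 in each KspCre comparison of Tsc2 KO with Ctrl. The number called lower was 7, 4 and 8 in the CaggCreERT2, KspCre and drug cohorts, and the number called higher was 5, 4 and 4, members included. Over all genes that reach 5 FPKM, 15.5%, 8.74% and 24.6% were called lower and 23.0%, 9.42% and 23.8% higher, so the numbers higher in the CaggCreERT2 and drug cohorts were near the background. Lower in all 3 were Ren1, Ace, Klk1 (tissue kallikrein, which releases kinins) and Anpep (aminopeptidase N, which trims angiotensin III), and higher in all 3 were Agt, Ctsa (cathepsin A, a lysosomal carboxypeptidase) and Prep (prolyl endopeptidase). Klk1 fell by 3.00, 2.12 and 3.48 on the log2 scale (adjusted p = 0.00105, 0.000796 and 1.01e-08). Anpep fell by 1.79, 1.11 and 1.66 (adjusted p = 0.000125, 0.00111 and 2.29e-06).

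In the vehicle-treated DKO against Tsc2 KO comparison, 6 of the 16 genes of the wider pathway that reach 5 FPKM were called higher and 2 lower. Over all genes that reach 5 FPKM, 16.9% were called higher and 12.6% lower. Those higher included Ren1, Ace, Anpep, Enpep and Klk1, and Mme and Prep were lower. Rapamycin in Tsc2 KO kidneys raised Ren1, Ace, Anpep, Enpep, Klk1 and Lnpep, the insulin-regulated aminopeptidase, and lowered Prep and Atp6ap2, the (pro)renin receptor. Over all 7997 genes that reach 5 FPKM in this comparison, 21.2% were called higher, and 1384 genes were called lower. These comparisons share the vehicle-treated Tsc2 KO libraries, so their calls are not independent. Most vehicle-treated Tsc2 KO and DKO libraries held adrenal transcripts, and the limit given above for the members applies to these calls too. In CaggCreERT2 kidneys 4 of 17 were higher in DKO than in Tsc2 KO, among them Anpep, Enpep and Klk1, and none was lower (background 6.91% higher). In untreated KspCre kidneys none was called by edgeR, against a background of 0.286% in either direction.

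Of 12 genes that control renin synthesis or release, 4, 4 and 6 reached 5 FPKM in the CaggCreERT2, KspCre and drug cohorts. With Tsc2 deletion 2, 1 and 1 of these were called lower and 0, 1 and 2 higher. The backgrounds were 15.5%, 8.74% and 24.6% lower and 23.0%, 9.42% and 23.8% higher. Nr1h3 (LXR alpha, a nuclear receptor that acts on the renin promoter) was lower in all 3 cohorts, at -0.92, -0.93 and -1.42 (adjusted p = 0.00245, 0.00441 and 2.71e-05). Adcy5, an adenylyl cyclase that responds to calcium, was higher in the KspCre cohort (1.73, adjusted p = 0.00432) and the drug cohort (2.82, adjusted p = 1.01e-07), and Adcy6 was lower in CaggCreERT2 kidneys (-0.44, adjusted p = 0.0113, and 0.0529 without Ctrl library 2). Akr1b7, a gene of renin cells that the adrenal cortex also expresses, was at 532, 1.72 and 2.26 FPKM in vehicle-treated Tsc2 KO libraries, where library 1 also had the highest adrenal sum. Its difference from Ctrl was 6.05 with all 3 libraries and -0.26 with library 3 alone. Of 10 genes downstream of the receptor or of aldosterone, 10, 9 and 10 reached 5 FPKM in the 3 cohorts. With Tsc2 deletion 2, 1 and 2 were called lower and 1, 0 and 3 higher, against the same backgrounds. Nr3c2, the mineralocorticoid receptor, was lower in CaggCreERT2 (-0.97, adjusted p = 0.000688) and drug cohort Tsc2 KO kidneys (-0.67, adjusted p = 0.00126). Hsd11b2, which protects that receptor from glucocorticoids, was lower in CaggCreERT2 (-1.01, adjusted p = 0.00208) and KspCre Tsc2 KO kidneys (-0.83, adjusted p = 0.00504). Scnn1b, a subunit of the epithelial sodium channel, was higher in the drug cohort (0.92, adjusted p = 0.000712). Sgk1, a kinase induced by aldosterone, was higher in CaggCreERT2 Tsc2 KO kidneys (0.91, adjusted p = 0.0417), and Rgs5, a regulator of G protein signalling in pericytes, was lower in the drug cohort (-0.81, adjusted p = 0.0192).

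Markers of several cell types that express these genes differed as well, in part in the other direction. Of 9 proximal tubule markers, 9, 8 and 8 reached 5 FPKM in the CaggCreERT2, KspCre and drug comparisons of Tsc2 KO with Ctrl. Of these 8, 4 and 6 were called lower and none higher, against backgrounds of 15.5%, 8.74% and 24.6% lower. Agt, which the proximal tubule makes, was higher in the same kidneys. The summed FPKM of the 9 markers was 1735 to 2063 in vehicle-treated Ctrl, 442 to 710 in Tsc2 KO, 1047 to 1884 in DKO and 1622 to 2074 in treated Tsc2 KO libraries. Of 6 podocyte markers, 5, 4 and 5 reached 5 FPKM, and 5, 4 and 4 of these were called lower against the same backgrounds. The sums were 101 to 131 in vehicle-treated Ctrl and 26.2 to 33.0 in Tsc2 KO libraries. Markers of smooth muscle, pericytes and mesangial cells, the lineage that includes renin cells, summed to 75.8 to 82.6 in Ctrl and 110 to 208 in Tsc2 KO libraries of the CaggCreERT2 cohort. In the KspCre cohort these sums were 57.0 to 67.7 and 36.6 to 58.1, and in vehicle-treated kidneys 61.7 to 79.2 and 44.3 to 77.0. The mural sum was higher in CaggCreERT2 Tsc2 KO than in Ctrl kidneys, where 1 of the 4 markers that reach 5 FPKM (Acta2) was called higher (background 23.0%), and overlapped controls in both KspCre cohorts. In CaggCreERT2 Tfeb KO libraries, the group with the highest mean Ren1 of that cohort, which was not called against Ctrl, the mural sum was 68.2 to 168 (median 150). The 2 juxtaglomerular markers besides Ren1, Gja5 and Akr1b7, summed to 6.25 to 8.37 in Ctrl and 2.80 to 4.56 in Tsc2 KO libraries of the CaggCreERT2 cohort and to 3.23 to 3.82 and 1.2 to 1.62 in the KspCre cohort, lower without overlap in both. Neither gene was called in these cohorts, and in the KspCre cohort neither reached 5 FPKM. In vehicle-treated kidneys the 2 markers summed to 3.72 to 4.12 in Ctrl and 2.39 to 533 in Tsc2 KO libraries, the highest being library 1 with its adrenal transcripts. Among other cell types, 4 of 4 markers of the distal tubule and collecting duct were called lower in CaggCreERT2 Tsc2 KO kidneys and 2 of 4 in the KspCre and in the drug cohort. The backgrounds were 15.5%, 8.74% and 24.6% lower. Of the thick limb and macula densa markers 2 reached 5 FPKM, and 1 of these, Slc12a1, was called lower in all 3 cohorts, against the same backgrounds. Slc12a1 was called higher in DKO than in Tsc2 KO kidneys of the CaggCreERT2 (background 6.91% higher) and drug cohorts (background 16.9% higher). All 4 markers summed to 1066 to 1350 FPKM in Ctrl and 723 to 817 in Tsc2 KO libraries of the CaggCreERT2 cohort. These sums were 1354 to 1505 and 1925 to 2096 in the KspCre cohort and 1104 to 1613 and 961 to 1873 in vehicle-treated kidneys. Of the endothelial markers that reach 5 FPKM, 5 of 6 were called lower in untreated KspCre Tsc2 KO kidneys (background 8.74%) and 2 of 5 in vehicle-treated ones (background 24.6%). In CaggCreERT2 kidneys 0 of 5 were called by edgeR (background 38.4% in either direction), where Emcn and Kdr had an unadjusted p under 0.05. The macrophage and fibroblast lists hold 6 genes each. The macrophage genes C1qb and C1qc were higher in CaggCreERT2 Tsc2 KO kidneys (background 23.0%), and in vehicle-treated Tsc2 KO kidneys the macrophage genes C1qa, C1qb and C1qc and 3 collagen genes were higher (background 23.8%) while the macrophage gene Csf1r was lower (background 24.6%). In untreated KspCre kidneys the macrophage sums were 47.8 to 59.6 FPKM in Ctrl and 63.9 to 105 in Tsc2 KO libraries. The fibroblast sums there were 27.6 to 41.6 and 43.4 to 84.9, and these groups overlapped in fibroblast sums in the CaggCreERT2 and drug cohorts. The part of cell composition in the differences of the members was not tested.

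**Figure D4:**
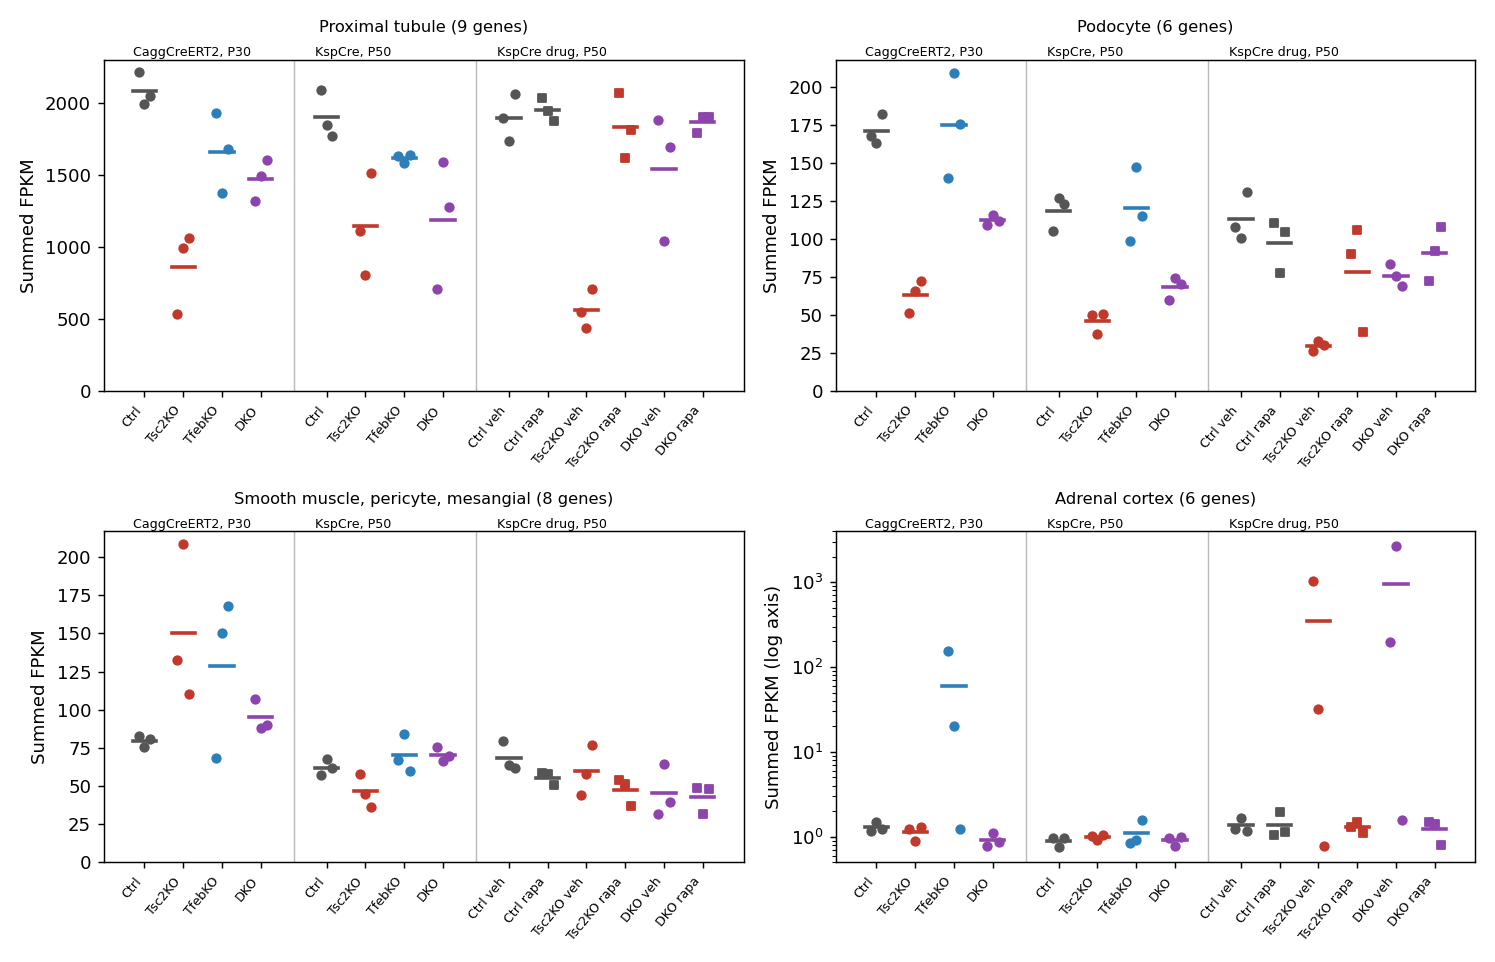
Summed FPKM of marker genes in each of the 42 libraries for the proximal tubule, podocytes, mural cells and, on a log axis, the adrenal cortex. Points are libraries, bars are group means, squares are rapamycin-treated groups, and vertical lines separate the cohorts. The adrenal sum is above 10 FPKM in 6 libraries and at most 1.93 in the others, and the lowest group median of the proximal tubule sum is that of vehicle-treated Tsc2 KO libraries (549, range 442 to 710).

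Levels of different genes are compared here in FPKM, which divides by a fixed length per gene (1657 bases for Ren1 and 11542 for Mme). The lengths of the transcripts made in these kidneys were not measured, so the order of the members depends on these fixed lengths. In CaggCreERT2 Ctrl kidneys Ren1 was the highest member at 182 ± 81.1 FPKM (SD, n = 3), followed by Enpep at 53.9 ± 3.52, Agt at 40.9 ± 3.04, Ace at 31.4 ± 6.63, Mme at 21.4 ± 2.26 and Agtr1a at 16.3 ± 0.303. In Tsc2 KO kidneys of that cohort Agt led at 228 ± 44.8, followed by Ren1 at 34.7 ± 21.6. Across groups of the CaggCreERT2 cohort, Ren1 ranked Tfeb KO, Ctrl, DKO and Tsc2 KO, and only Tfeb KO and Ctrl overlapped. In the drug cohort, the order of Ren1 was vehicle-treated Ctrl, treated Ctrl, vehicle-treated DKO, treated DKO, treated Tsc2 KO and vehicle-treated Tsc2 KO, where each group overlapped the next except for the last step. The order of Enpep in CaggCreERT2 kidneys was Ctrl, Tfeb KO, DKO and Tsc2 KO, with no overlap between neighbours.

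Across the 42 libraries, with each cohort centred on its own mean, the genes whose log2(CPM + 1) was most like that of each member are given as a description over 7469 genes, and the libraries share genotype, treatment and cell composition. Ren1 was most like Cwh43, Shd and Gstz1 (r = 0.856, 0.847 and 0.841) and Agt most like Fga, Cstb and Fgg (r = 0.866, 0.865 and 0.862), of which Fga and Fgg encode fibrinogen chains. Ace was most like Acadm, Aadat and Mpv17l (r = 0.935, 0.934 and 0.931), where Acadm encodes medium-chain acyl-CoA dehydrogenase, and Enpep most like Macrod2, Mut and Cat (r = 0.922, 0.921 and 0.916), where Mut encodes methylmalonyl-CoA mutase and Cat catalase. The likeness was lower for Agtr1a (Jam3, Ecm1 and Chst15, r = 0.772, 0.728 and 0.718) and Mme (Nedd4l, Gca and Dcaf1, r = 0.727, 0.720 and 0.716). Among the members, r was 0.722 between Ren1 and Ace, 0.724 between Ren1 and Enpep, 0.748 between Ace and Enpep, -0.683 between Ren1 and Agt, and 0.170 between Ren1 and Mme.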

How the data were processed

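The authors deposited a table of raw read counts per gene and a table of FPKM per gene for each cohort. The libraries were poly-A selected and not strand-specific. Per the labels, the submitters' processing notes name STAR 2.6.1d, HISAT2 2.0.5, featureCounts 1.5.0-p3, DESeq2 1.20.0 and mm10, without their roles. Of 54532 gene identifiers, 53585 have the same start and end in GENCODE M21 (GRCm38).

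Deposited counts were tested with edgeR 4.0.16 in R 4.3.3 (filterByExpr by group, TMM, quasi-likelihood test, all groups of a cohort in 1 fit, no covariate, Benjamini-Hochberg adjustment over all tested genes), as separate fits for the 3 cohorts. Calls needed an adjusted p up to 0.05, and the group means of deposited FPKM had to reach 5 in 1 or more of the groups compared. Backgrounds are shares of genes that reached this FPKM. Fold changes and SE come from the counts, levels from the FPKM, and 95% intervals are 1.96 SE either side. With 3 libraries a group and 14926050 to 22807605 reads, intervals cover the spread between libraries. Replicates differed well beyond sampling noise (chi-square of 16.4 to 87.5 per gene), so none was counted as a repeat.

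Named beside the members were up to 3 called genes with the largest change from each wider list and the 3 genes most like each member (log2 of CPM with 1 added, mean FPKM of at least 5 in a group of each cohort). The members, lists and rules were chosen with earlier results of these data known. Sex was read from Xist above 10 CPM. Alternatives were RLE scaling, no filter on low counts, only the groups compared, DESeq2 1.42.0, a replicate block, a sex covariate, the count table's sample names, leaving out each library and, chosen after seeing the data, leaving out 6 libraries whose adrenal cortex genes summed to over 10 FPKM and male libraries only. Promoter sequences are from RefSeq (GRCm38.p6), which gave 8 windows for 5 members. Differential expression columns of the authors were not used. 1 gene of the wider pathway list is counted in the totals but not reported by name here.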

Additional observations from a re-analysis of the deposited data

Results flagged for a closer look

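The effect of losing Tfeb on Enpep differed between kidneys with and without Tsc2 deletion in the CaggCreERT2 cohort, by 0.84 on the log2 scale (interaction term, adjusted p = 0.00912), and Enpep was at 38.3 to 39.0 FPKM in DKO and 22.3 to 25.9 in Tsc2 KO libraries. It was not called with sex as a covariate (adjusted p = 0.162) or without the libraries that held adrenal transcripts (adjusted p = 0.0891). The effect of rapamycin differed between Tsc2 KO and Ctrl kidneys by 2.74 for Ren1 (adjusted p = 0.0029), 1.83 for Ace (adjusted p = 0.000321) and 1.45 for Enpep (adjusted p = 0.00111). For Ace and Enpep, every treated Ctrl library was below the mean of its vehicle-treated group and every treated DKO library above that of its own. The log2 fold changes were -0.31 in Ctrl and 1.12 in DKO for Ace, and -0.26 in Ctrl and 0.32 in DKO for Enpep. This difference between Ctrl and DKO was not tested.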

How the results depend on the processing

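Of 32 calls of the members, 25 were kept with any single library left out and 13 under every alternative. RLE scaling left the direction and call of all 120 member results as they were. With 1 library left out, 1671 of 1800 member results kept direction and call, 55 lost and 26 gained a call, and 48 changed sign. The counts below are of the 6 members called.

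DESeq2 called 5 in KspCre Tsc2 KO against Ctrl, 1 in KspCre DKO against Ctrl and in the KspCre interaction, 4 in vehicle-treated DKO against Ctrl, 4 for rapamycin in Tsc2 KO, 2 for rapamycin in DKO, 1 in treated Tsc2 KO against treated Ctrl and 2 in the rapamycin interaction of Tsc2 KO and DKO. Without a filter on low counts the numbers were 3 in CaggCreERT2 DKO against Tsc2 KO and 5 against Ctrl, 4 in KspCre Tsc2 KO against Ctrl, 1 in KspCre DKO against Ctrl, 4 in vehicle-treated DKO against Ctrl, 4 for rapamycin in Tsc2 KO, 2 for rapamycin in DKO, 1 in treated Tsc2 KO against treated Ctrl and 2 in the last interaction. Fits of only the groups compared called 5 in CaggCreERT2 DKO against Ctrl, 5 in KspCre Tsc2 KO against Ctrl, 3 in vehicle-treated Tsc2 KO against Ctrl, 1 in vehicle-treated DKO against Ctrl, 2 for rapamycin in DKO and 0 in treated DKO against treated Tsc2 KO. The count table's names, which go against the Tsc2 levels of 2 libraries, gave 3 in CaggCreERT2 Tsc2 KO against Ctrl and 0 in DKO against Ctrl. A sex covariate gave 0 in the CaggCreERT2 interaction. It could not be fitted in the other cohorts, which hold 1 sex. Male libraries only gave 2 in DKO against Tsc2 KO and 5 against Ctrl. Without the libraries that held adrenal transcripts, which leaves 1 library each in vehicle-treated Tsc2 KO, vehicle-treated DKO and CaggCreERT2 Tfeb KO, 0 were called in the CaggCreERT2 interaction, in vehicle-treated DKO against Tsc2 KO or Ctrl, and for rapamycin in DKO, and 4 in vehicle-treated Tsc2 KO against Ctrl. The cause of these shifts was not tested.

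Same-numbered libraries did not deviate together (correlations from -0.17 to 0.13, -0.29 to 0.25 and -0.36 to 0.36 in the 3 cohorts), and 2 of 12, 6 of 12 and 7 of 18 libraries correlated best with their own number, so the numbers were not taken as pairs. With a replicate block 1 member was called in vehicle-treated DKO against Ctrl and 0 in treated DKO against treated Tsc2 KO. In KspCre Tsc2 KO against Ctrl the block gave adjusted p = 0.0959 for Ren1 and 0.0628 for Agt, and Agtr1a was called (adjusted p = 0.0488).

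Signs that changed belonged to results that were not called, except Akr1b7. In CaggCreERT2 Tfeb KO against Ctrl, Ace was -0.0054 without a filter, -0.00024 with the replicate block, -0.32 with a sex covariate, -0.046 with the count table's names and -0.29 without adrenal libraries, Agtr1a 0.0058 with sex, Ren1 -0.19 with the count table's names and Agt -0.11 without adrenal libraries. In CaggCreERT2 DKO against Tsc2 KO, Agtr1a was -0.0052 without a filter, -0.063 with sex, -0.0043 without adrenal libraries and -0.11 in males, Mme 0.039 with sex, 0.27 with the count table's names and 0.33 in males, and Agt 0.13 in males. In the CaggCreERT2 interaction Agtr1a was -0.068 with sex and -0.00033 without adrenal libraries, Mme 0.22 with the count table's names and Ren1 -0.0054 without adrenal libraries. Without adrenal libraries Mme was -0.28 and Akr1b7 -0.26 in vehicle-treated Tsc2 KO against Ctrl, and Mme 0.12 in the interaction of Tsc2 KO and DKO. With the replicate block Agtr1a was -0.0029 for rapamycin in DKO.

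With single libraries left out, the number called ranged from 1 to 2 in CaggCreERT2 DKO against Tsc2 KO, 3 to 5 against Ctrl and 1 to 2 in the interaction. It ranged from 1 to 4 in KspCre Tsc2 KO against Ctrl, 0 to 1 in KspCre DKO against Tsc2 KO, 3 to 5 in vehicle-treated Tsc2 KO against Ctrl, 1 to 3 in vehicle-treated DKO against Ctrl, 3 to 5 for rapamycin in Tsc2 KO, 1 to 2 for rapamycin in DKO, 0 to 1 in treated DKO against treated Tsc2 KO and 0 to 1 in the interaction of Tsc2 KO and DKO. Ranges of log2 fold changes that spanned 0 were, in CaggCreERT2, -0.20 to 0.13 for Ace (Tfeb KO against Ctrl), -0.12 to 0.096 for Agtr1a and -0.14 to 0.052 for Mme (DKO against Tsc2 KO) and -0.018 to 0.88 for Ren1 (interaction). In KspCre they were -0.48 to 0.045 for Mme (Tsc2 KO against Ctrl), -0.0066 to 1.06 for Ren1, -0.0043 to 1.2 for Agt and -0.27 to 0.020 for Agtr1a (Tfeb KO against Ctrl), -0.090 to 0.16 for Agtr1a and -0.15 to 0.25 for Enpep (DKO against Tsc2 KO) and -0.34 to 0.19 for Mme (interaction). In the drug cohort they were -0.057 to 0.23 for Mme and -0.43 to 6.64 for Akr1b7 (Tsc2 KO against Ctrl, vehicle), -0.10 to 0.53 for Agt and -0.37 to 0.17 for Agtr1a (DKO against Ctrl, vehicle), -0.49 to 0.14 for Agt, -0.34 to 0.10 for Agtr1a and -0.20 to 0.032 for Mme (rapamycin in Ctrl), -0.23 to 0.11 for Ren1 and -0.14 to 0.26 for Agtr1a (rapamycin in DKO), -0.85 to 0.082 for Ren1, -0.14 to 0.12 for Agtr1a and -0.26 to 0.093 for Enpep (treated Tsc2 KO against treated Ctrl) and -0.15 to 0.21 for Enpep (treated DKO against treated Tsc2 KO).

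Over all genes, leaving out adrenal libraries cut the number called from 2348 to 358 in vehicle-treated DKO against Tsc2 KO, from 3924 to 2193 in Tsc2 KO against Ctrl and from 3078 to 1400 for rapamycin in Tsc2 KO. The count table's names cut it from 3109 to 1950 in CaggCreERT2 Tsc2 KO against Ctrl and from 1185 to 1 in DKO against Ctrl, and a sex covariate from 178 to 24 in the CaggCreERT2 interaction.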
